A study of Homo sapiens with 4 samples.

Results

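The p53 target genes described here are 36 genes that the tumour suppressor p53 is known to switch on. They were taken by symbol from a list that was chosen with earlier results of these data known. The deposited count table holds 58233 genes. All 36 were found, each under a single identifier, and 35 had enough counts to be tested. The excluded member was TNFRSF10C. RNA was sequenced from MCF10AT, a human mammary epithelial line derived from MCF10A and transformed by HRas G12V, in 4 libraries. Of these, 2 carried a genotype labelled Bromo+/- and 2 were the non-target control, and both groups share the HRas change. The labels do not spell out Bromo+/- further, although the series title names lowered EP300 and its protocols describe lentiviral shRNA with puromycin selection. The design text describes EP300 shRNAs with more replicates than the 2 libraries per group here, and how the Bromo+/- libraries relate to those shRNAs is not given in the sources used here. No label says whether the libraries of a group came from separate cultures or from separate clones, so p-values reflect the spread among these libraries alone, and that spread may be technical.

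p53 is a transcription factor that is held at a low level by the ubiquitin ligase MDM2, itself a p53 target, and that accumulates after DNA damage and other stresses. It binds a pair of similar ten-base motifs (decamers) and turns on genes that stop the cell cycle, repair DNA, adjust metabolism or trigger cell death. The acetyltransferases p300 (EP300) and CBP (CREBBP) are known p53 coactivators, and MCF10A cells are known to lack CDKN2A, a locus that feeds into p53 through MDM2.

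Binding motifs of p53 were looked for in the RefSeq promoter windows (GRCh38.p14, 250 bases before to 50 after an annotated start), which covered 28 of the 36 genes. The members without an entry were FBXO22, GADD45A, PHLDA3, RRM2B, TNFRSF10A, TNFRSF10B, TNFRSF10C and TP53INP1. A site was counted where 2 decamers of the p53 consensus lay 0 to 13 bases apart, with the fixed C and G of each decamer intact and at most 2 mismatches in all. The decamer is the same on both strands. Such a site stood in a window of 5 of the 28 genes (17.9%) and of 989 of 27305 genes with a window (3.62%). For each of the 5 genes the site with the fewest mismatches, and then the shortest spacing, is printed. Capitals mark the decamers, read 5′ to 3′ on the strand of the gene.
MDM2 (chr12:68808913-68808952, plus strand): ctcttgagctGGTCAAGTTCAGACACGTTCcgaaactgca
DDB2 (chr11:47214975-47215003, plus strand): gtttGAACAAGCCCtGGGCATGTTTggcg
FDXR (chr17:74872996-74873025, minus strand): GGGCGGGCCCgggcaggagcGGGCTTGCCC
FAS (chr10:88991304-88991333, plus strand): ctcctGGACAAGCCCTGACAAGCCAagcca
AEN (chr15:88621301-88621330, plus strand): gagccGGGCTTGCCCGGGCATGTGGgagct
The DDB2 site had 0 mismatches, and the others had 2 each. The DDB2 site lay 5 to 25 bases downstream of an annotated start, within an exon, and the MDM2 site lay inside the gene and outside its exons, upstream of internal starts. The stretches printed for FDXR, FAS and AEN lay upstream of an annotated start within exons of other transcripts. Of the 5 genes, MDM2, DDB2, FDXR and FAS rose and AEN did not pass the test. Among all 35 tested members, with or without a site, 27 rose (77.1%). Whether a site goes with a rise was not tested. A match describes letters in a window and not binding, and windows without a match include that of CDKN1A.

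The p53 target genes were mostly higher in the libraries labelled Bromo+/-, and most of the rises were moderate. Of 35 tested genes, 27 rose (77.1%), 6 fell (17.1%) and 2 did not pass, at an adjusted p under 0.05 in edgeR's quasi-likelihood test. Over all 13179 tested genes 26.4% were called higher and 27.1% lower. The median log2 fold change was 0.39 (quartiles 0.25 and 0.78), against 0.01 over all tested genes (quartiles -0.25 and 0.31). The rises ran from 1.16-fold for FAS to 5.30-fold for CYFIP2, and 23 of the 27 stayed under 2-fold. A change of at least 2-fold was reached by 4 members, all higher, while 7.44% of all tested genes were called higher at that size and 15% were called in either direction. The groups did not overlap for 34 of the 35 tested genes, where 75.2% of all tested genes did not overlap.

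**Figure D1:**
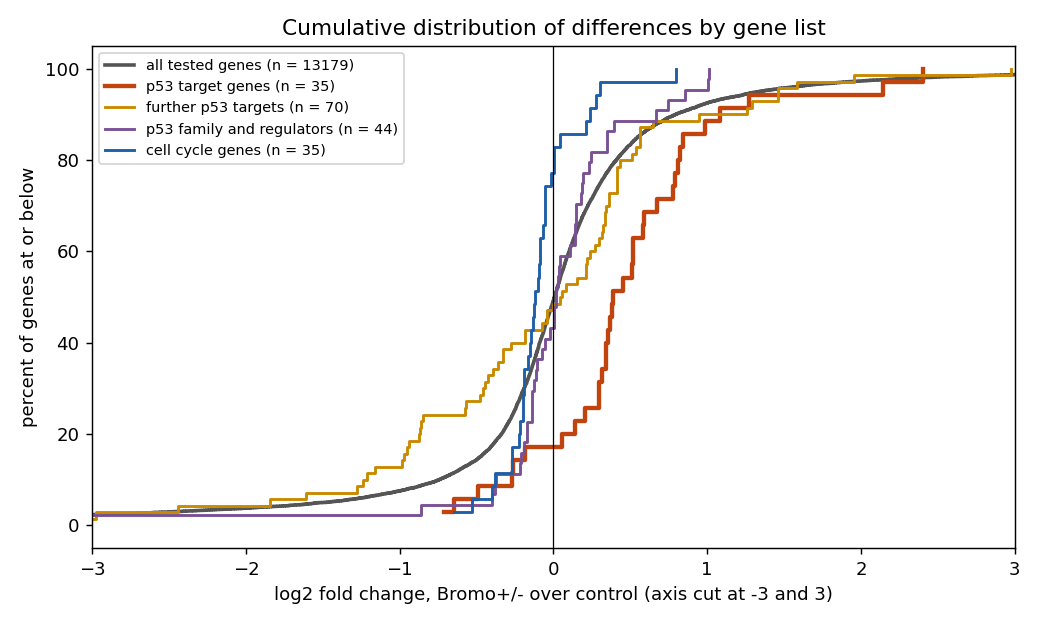
Cumulative share of genes (y axis, percent) against log2 fold change of Bromo+/- over control (x axis, cut at -3 and 3), for the p53 target genes, 3 other gene lists and all tested genes. The curve of the p53 target genes lies to the right of the others over most of its length, with a median of 0.39 against 0.01 for all tested genes.

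Summed over the 36 genes, transcripts made up 3257 and 3198 scaled CPM (counts relative to library size) for Bromo+/- and 2455 and 2440 CPM in the controls. CDKN1A alone accounted for 17.6% to 18.8% of that sum in each library. Below, values in a library are scaled CPM, replicates 1 and 2 in that order. Log2 fold changes compare Bromo+/- with control and carry a standard error (SE), and adjusted p-values come from the same edgeR fit over all tested genes.

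**Figure D2:**
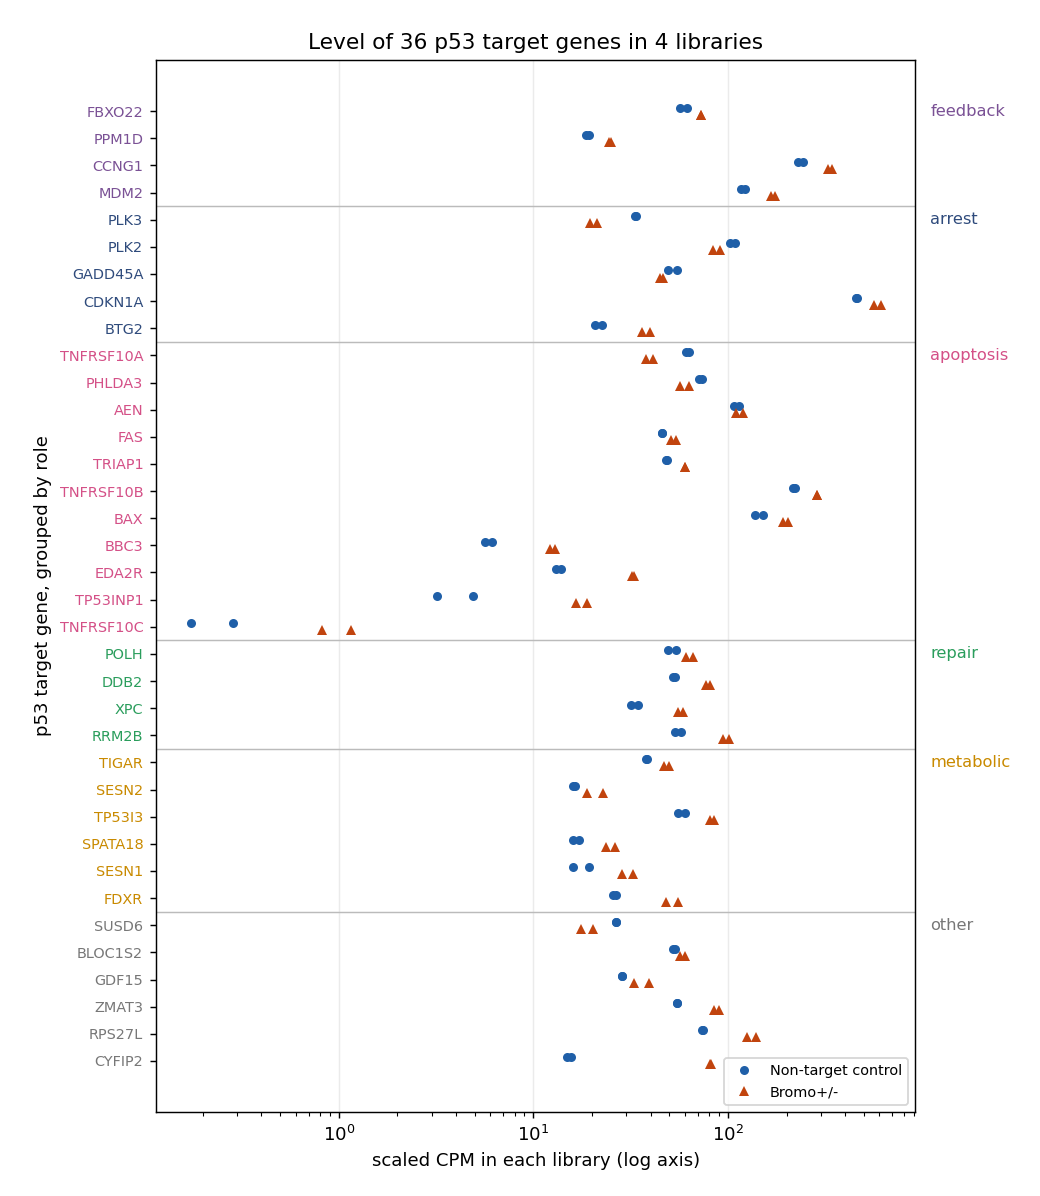
Scaled CPM (x axis, log scale) of the 36 p53 target genes in each of the 4 libraries, grouped by role, with triangles for Bromo+/- and circles for the control. The groups are apart for every gene but AEN, and PLK3, PLK2, GADD45A, TNFRSF10A, PHLDA3 and SUSD6 lie lower in Bromo+/-.

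Genes that act back on p53 were higher, 4 of 4. MDM2, the ubiquitin ligase that degrades p53, stood at 167 and 175 CPM in Bromo+/- and at 116 and 122 CPM in the controls. Both Bromo+/- libraries lay above both controls, and the log2 fold change was 0.52 (SE 0.06, adjusted p = 3.98e-15; chromosome 12, 68808176 to 68850686). CCNG1, which encodes cyclin G1, a partner of the phosphatase that activates MDM2, stood at 328 and 344 against 229.5 and 243 CPM. That is a log2 fold change of 0.51 (SE 0.05), nearly the same as for MDM2. FBXO22, the substrate receptor of a ubiquitin ligase, stood at 73.0 and 72.7 against 57.0 and 61.7 CPM (log2 fold change 0.29, SE 0.07). Its exons share 1917 bases with NRG4 on the other strand, which had 13 to 27 counts per library. PPM1D, the phosphatase WIP1 that removes activating phosphates from p53 and its kinases, stood at 24.5 and 24.98 against 19.4 and 18.6 CPM (log2 fold change 0.38, SE 0.11). PPM1D missed the threshold in the DESeq2 Wald test (adjusted p = 0.0542).

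Cell cycle arrest genes went both ways, with 2 higher and 3 lower of 5. CDKN1A encodes p21, the inhibitor of cyclin-dependent kinases through which p53 halts the cycle. It stood at 609 and 564 CPM in Bromo+/- and at 462 and 456 CPM in the controls, with 0.35 as its log2 fold change (SE 0.05, adjusted p = 1.84e-10; chromosome 6, 36676460 to 36687339). Its groups were apart, and 22.4% of all tested genes had a higher log2 fold change. BTG2, an antiproliferative cofactor of mRNA deadenylation, rose more, to 39.9 and 36.2 from 20.7 and 22.7 CPM (log2 fold change 0.81, SE 0.10).

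PLK3, a stress-activated polo-like kinase, stood at 21.4 and 19.6 CPM in Bromo+/- and at 33.8 and 33.5 CPM in the controls. Its log2 fold change of -0.71 (SE 0.10, adjusted p = 3.44e-11; chromosome 1, 44800225 to 44805990) was the lowest of the 35. Its relative PLK2, a kinase of centriole duplication, stood at 91.1 and 83.6 against 108 and 103 CPM (log2 fold change -0.27, SE 0.07). GADD45A, a stress protein of the G2 checkpoint, stood at 46.3 and 45.0 against 54.7 and 49.4 CPM (log2 fold change -0.19, SE 0.08, adjusted p = 0.0361, edgeR). All 3 falls were by less than 2-fold. The GADD45A call ended with upper quartile scaling (adjusted p = 0.167), with library size alone (0.269), with the DESeq2 Wald test (0.197), without Bromo+/- replicate 2 (0.0919) and without control replicate 1 (0.395).

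**Figure D3:**
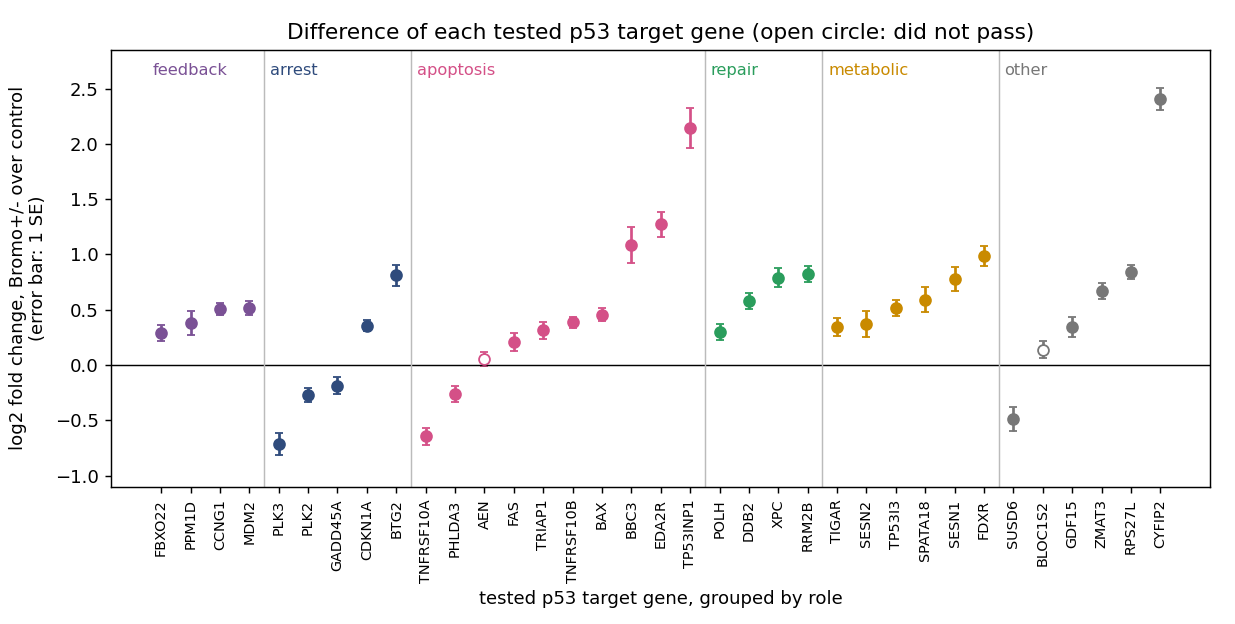
Log2 fold change of Bromo+/- over control (y axis, error bars 1 SE) for the 35 tested p53 target genes, grouped by role, with open circles for AEN and BLOC1S2, which did not pass. Every feedback, repair and metabolic gene lies above 0, while the arrest, apoptosis and other groups have genes on both sides.

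Among apoptosis genes 7 of 10 tested rose, 2 fell and 1 did not pass, and this role held the widest spread of the named pathways. TP53INP1, which promotes p53 phosphorylation and autophagy, stood at 16.6 and 18.9 CPM in Bromo+/- and at 4.87 and 3.20 CPM in the controls. Both of its Bromo+/- values were well above the controls, and the log2 fold change was 2.14 (SE 0.18, adjusted p = 1.00e-28), and 2.41% of tested genes rose further. EDA2R, a receptor of the tumour necrosis factor family, stood at 33.0 and 32.2 against 13.9 and 13.1 CPM. The log2 fold change was 1.27 (SE 0.11; chromosome X, 66595637 to 66639298). BBC3, which encodes the BH3-only killer protein PUMA, was near 6 CPM in the controls (5.64 and 6.14) and at 12.2 and 12.8 CPM in Bromo+/- (log2 fold change 1.09, SE 0.17). BAX, the effector that opens the mitochondrial outer membrane, rose less, to 204 and 191 from 152 and 137 CPM (0.46, SE 0.06).

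Death receptors did not move together. TNFRSF10B, the TRAIL receptor DR5, rose to 286 and 285 from 221 and 216 CPM (log2 fold change 0.39, SE 0.05). TNFRSF10A, the TRAIL receptor DR4 of the same gene cluster on chromosome 8, fell to 38.1 and 41.3 from 60.8 and 63.0 CPM (log2 fold change -0.64, SE 0.08, adjusted p = 9.42e-14). TNFRSF10C, a decoy TRAIL receptor of the same cluster, had 10 and 13 counts in Bromo+/- against 3 and 2, too few for the filter on low counts. TNFRSF10D, the other decoy and no member of the 36, rose from a mean of 77.2 to 120.8 CPM (log2 fold change 0.65). FAS, the receptor of FAS ligand, has exons that share 380 bases with ACTA2 on the other strand. ACTA2 had 106 and 98 counts in Bromo+/- against 34 and 44, so part of the FAS count is uncertain. FAS stood at 51.2 and 54.2 against 45.6 and 45.7 CPM (log2 fold change 0.21, SE 0.08, adjusted p = 0.0184, edgeR). It missed the threshold in the DESeq2 Wald test (adjusted p = 0.154), without Bromo+/- replicate 2 (0.102) and without either control replicate (0.121 and 0.124).

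Of the remaining apoptosis genes, TRIAP1, a small survival protein that restrains caspase activation, rose to 59.99 and 59.8 from 48.3 and 48.0 CPM (log2 fold change 0.31, SE 0.08). PHLDA3, a repressor of AKT signalling, fell to 63.4 and 56.7 from 73.3 and 71.3 CPM (log2 fold change -0.26, SE 0.07). AEN, an exonuclease of apoptotic DNA breakdown, stood at 119 and 110.3 against 114 and 107 CPM. The AEN groups overlapped (log2 fold change 0.06, SE 0.06, adjusted p = 0.448), and a p that misses the threshold does not show that the level was equal.

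All 4 DNA repair genes were higher. RRM2B, the p53-inducible ribonucleotide reductase subunit that supplies nucleotides outside S phase, stood at 94.3 and 101 CPM in Bromo+/- and at 53.2 and 57.1 CPM in the controls (log2 fold change 0.82, SE 0.07, adjusted p = 4.52e-24). XPC and DDB2 recognise ultraviolet lesions for nucleotide excision repair. XPC stood at 55.1 and 59.1 against 34.4 and 31.7 CPM (log2 fold change 0.79, SE 0.08). Its exons share 318 bases with LSM3 on the other strand, which had 736 to 915 counts per library, so part of its count is uncertain. DDB2, whose start region holds the site without mismatches, stood at 77.2 and 81.2 against 53.5 and 52.3 CPM (log2 fold change 0.58, SE 0.07). POLH, the translesion polymerase eta, rose least, to 61.0 and 66.4 from 49.2 and 54.0 CPM (log2 fold change 0.30, SE 0.08). The POLH call ended without control replicate 1 (adjusted p = 0.061, edgeR).

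All 6 metabolic and mitochondrial genes were higher. FDXR, ferredoxin reductase of the mitochondrial electron chain for steroid and iron-sulfur synthesis, stood at 55.1 and 48.1 CPM in Bromo+/- and at 26.6 and 25.6 CPM in the controls (log2 fold change 0.99, SE 0.09, adjusted p = 3.09e-23; chromosome 17, 74862497 to 74873031). SESN1 and SESN2 encode sestrins, which restrain the growth kinase complex mTORC1. SESN1 stood at 28.5 and 32.3 against 16.1 and 19.3 CPM (log2 fold change 0.78, SE 0.11), and SESN2 at 22.9 and 19.0 against 16.1 and 16.4 CPM (0.37, SE 0.12). SESN2 missed the threshold in the DESeq2 Wald test (adjusted p = 0.104) and when Bromo+/- replicate 1 was left out (0.186, log2 fold change 0.22). TP53I3, a quinone oxidoreductase, rose to 84.6 and 81.1 from 60.5 and 55.3 CPM (log2 fold change 0.52, SE 0.07). SPATA18, a factor of mitochondrial quality control, rose by 0.59 (SE 0.11) and TIGAR, a phosphatase that diverts sugar from glycolysis, by 0.34 (SE 0.08) on the log2 scale.

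Targets that the grouping used here placed outside these roles held the largest rise of the 35 tested genes. CYFIP2, a subunit of the WAVE actin regulator that is also known as a p53-induced apoptosis gene, stood at 80.5 and 81.7 CPM in Bromo+/- and at 15.7 and 14.96 CPM in the controls. The groups were far apart, and the log2 fold change was 2.41 (SE 0.10, adjusted p = 5.03e-74; chromosome 5, 157266079 to 157395595), and 1.92% of tested genes rose further. RPS27L, a ribosomal protein relative that binds MDM2, rose to 139 and 125.5 from 73.9 and 74.1 CPM (log2 fold change 0.84, SE 0.07). ZMAT3, an RNA-binding regulator of splicing, rose to 84.8 and 89.5 from 54.7 and 54.5 CPM (0.67, SE 0.07).

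GDF15, a secreted stress cytokine, stood at 39.3 and 32.8 against 28.5 and 28.5 CPM (log2 fold change 0.34, SE 0.09). It missed the threshold in the DESeq2 Wald test (adjusted p = 0.0507) and when Bromo+/- replicate 1 was left out, where the log2 fold change was 0.20 (adjusted p = 0.115). SUSD6, a sushi-domain membrane protein, fell to 20.2 and 17.5 from 26.6 and 26.6 CPM (log2 fold change -0.49, SE 0.11, adjusted p = 2.16e-05, edgeR). BLOC1S2, a subunit of lysosome-related trafficking complexes, stood at 56.7 and 59.9 against 52.4 and 53.4 CPM and did not pass (log2 fold change 0.14, SE 0.08, adjusted p = 0.112). It passed with upper quartile scaling (adjusted p = 0.0206) and with library size alone (0.00886).

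Per length, the order of levels changed little at the top. In RPKM (reads scaled to library size and per kilobase, from the merged exon length in the deposited table), CDKN1A was highest at 150.5 in the controls and 192 in Bromo+/-. CCNG1 (76.3 and 109), BAX (55.8 and 76.4), TNFRSF10B (42.4 and 55.4) and TRIAP1 (33.4 and 41.5) followed in the same order in both groups. TP53INP1 (0.711 and 3.13 RPKM) was the lowest of the tested genes in both, although its fold was the second largest. The genes that fell moved down the order. TNFRSF10A went from rank 10 to 19 and PLK3 from rank 18 to 30 of 36, while GADD45A went only from 6 to 7 and PHLDA3 from 8 to 9. Some genes that rose also moved down, among them FAS, from rank 16 to 21. Merged exon length overstates the length of genes with long rare transcripts, so an RPKM sets a gene's place only roughly.

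**Figure D4:**
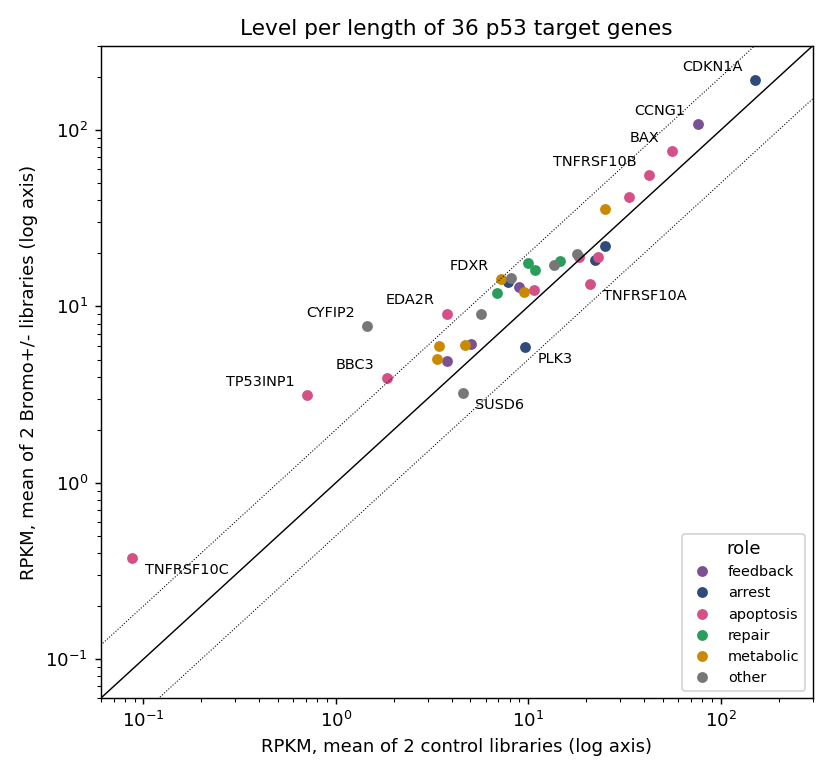
Level per length (RPKM, log axes) of the 36 p53 target genes, mean of 2 control libraries on the x axis and of 2 Bromo+/- libraries on the y axis, coloured by role. The solid line marks equal levels and the dotted lines a 2-fold difference, and CYFIP2, TP53INP1, EDA2R, BBC3 and the sparsely counted TNFRSF10C lie above the upper dotted line.

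The p53 family and the proteins that regulate p53 were not uniformly higher. TP63, the p53 relative that binds the same motif and maintains basal epithelium, had 3 and 5 counts against 233 and 262, a log2 fold change of -6.00 (SE 0.52). TP73 and CDKN2A had 0 counts in all 4 libraries. MDM4, the partner of MDM2, did not pass (log2 fold change 0.11, SE 0.10).

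EP300 stood at 121 and 126 against 106 and 111 CPM (log2 fold change 0.19, SE 0.06, adjusted p = 0.00701, edgeR), against the direction that the series title names. EP300 missed the threshold in the DESeq2 Wald test (adjusted p = 0.0639) and when control replicate 1 was left out (0.162). CREBBP rose by 0.39 on the log2 scale (SE 0.07). Of 44 tested genes of the family and regulator list, 15 rose and 9 fell (20 did not pass), where 26.4% of all tested genes were higher and 27.1% lower, and the median was 0.02. Without control replicate 1 fewer genes of this list passed in each direction, and a smaller share of all tested genes passed as well. The DESeq2 Wald test gave 9 higher, where it called 17.4% of all tested genes higher. Library size alone gave 5 lower, where it called 21.2% of all tested genes lower. Rises included the kinases HIPK2 (log2 fold change 1.01) and ATM (0.86), which phosphorylate p53, the damage adaptor TP53BP1 (0.67) and the acetyltransferase KAT2B (1.00). Falls included PPP1R13L (-0.86), which encodes the p53 inhibitor iASPP, the checkpoint kinase CHEK1 (-0.38) and the methyltransferase SMYD2 (-0.38). The exons of TP53BP1 share 28.7% of their length with TUBGCP4 on the other strand, which leaves its level uncertain.

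Other known p53 targets went both ways. Of 70 tested further targets, 25 rose (35.7%) and 28 fell (40.0%), with a median of 0.05. Over all tested genes 26.4% were higher and 27.1% lower. The further targets with the smallest p among those that fell were KRT8, a simple-epithelial keratin (log2 fold change -2.98; its exons overlap those of KRT18), SFN, the 14-3-3 sigma protein of the G2 checkpoint (-2.44), CD82, a tetraspanin (-4.42), and PERP, a desmosomal protein (-1.24). Those that rose included IKBIP (1.59), NINJ1, a protein of plasma membrane rupture (1.46), and the macrophage growth factor CSF1 (1.46). A difference between the 36 genes and this list was not tested.

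Genes that p21 and the DREAM repressor complex are known to lower gave counts that depended on the processing. Of 35 tested cell cycle genes 17 fell, 5 rose and 13 did not pass, where 27.1% of all tested genes were lower and 26.4% higher. Their median log2 fold change was -0.12. With library size alone 7 of the 35 were lower, about the share over all tested genes under that scaling (21.2%). The count was 10 with upper quartile scaling (22.7% of all tested genes) and 11 in the DESeq2 Wald test (19.7%). It was 9 without control replicate 1 (21.6%) and 9 without control replicate 2 (20.9%). Falls included the mitotic kinase AURKB (-0.53), the centriole kinase PLK4 (-0.40) and MKI67, the proliferation antigen Ki-67 (-0.27). TYMS, thymidylate synthase (0.80; its exons overlap those of ENOSF1), FOXM1 (0.30), TOP2A (0.27) and CENPF (0.24) rose. Of 12 tested subunits of DREAM and its relatives 4 rose (TFDP2, E2F5, RB1 and RBBP4), 1 fell (LIN52) and 7 did not pass. That is 33.3% higher and 8.33% lower, against 26.4% and 27.1% of all tested genes. The RB1 call ended without Bromo+/- replicate 2 (adjusted p = 0.242, edgeR) and without control replicate 1 (0.0981), and that of RBBP4 in the DESeq2 Wald test (0.0597) and without control replicate 2 (0.269).

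Library totals ran from 10835237 to 11975396 counts, so that 3 counts equal 0.245 to 0.287 scaled CPM, and the common biological coefficient of variation was 3.52%. Epithelial identity differed between the groups beside the p53 target genes: all 7 tested of 8 epithelial markers fell, among them CDH1, and their sum was 1550 to 1620 CPM in the libraries labelled Bromo+/- against 7942 to 8218 CPM in the controls. All 5 tested of 8 mesenchymal markers rose, with a sum of 5837 to 6001 against 1809 to 1923 CPM, and COL3A1 had no count in any library. Leukocyte markers summed to 3.46 to 3.75 against 19.0 to 20.1 CPM, with CD3E at 0 throughout and 2 of 8 tested, both lower. Endothelial markers summed to 3.11 to 4.59 CPM over all libraries, with VWF and ERG at 0 and 2 of 7 tested, of which KDR rose (15 and 22 counts against 8 and 5) and PECAM1 did not pass, and adipocyte markers to 0.382 to 0.692 CPM. The part of these markers, and of TP63, in the levels of the p53 target genes was not tested. In bulk RNA, more cells with a transcript and more transcript per cell cannot be told apart, and p53 protein and its activity were not measured.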

How the data were processed

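RNA-seq of 4 MCF10AT libraries was analysed. The deposited table, as the authors made it, holds raw, unnormalized counts for each Ensembl gene, with each gene's merged exon length in bases and exon positions. Reads were aligned with STAR to GRCh38 and counted with featureCounts 1.5.2, per the submitters' processing notes; which annotation, strand setting and rule for multi-mapped reads were used is not given in the sources used here, so counts of overlapping genes are uncertain. Columns were matched to samples by name, with columns named WT taken as the non-target control. Current symbols named 57392 of the 58233 identifiers, and GENCODE v29 named another 503.

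Counts were analysed with R 4.3.3 and edgeR 4.0.16: filterByExpr (13179 genes), TMM scaling (trimmed mean of M values, factors 0.968 to 1.03) and the robust quasi-likelihood test on 2 residual degrees of freedom. P-values were adjusted by Benjamini-Hochberg across every tested gene, with a threshold of 0.05. The SE is from the fitted model. Scaled CPM are counts over the scaled library size. Replicates correlated at r = 0.995 (Bromo+/-) and 0.994 or more (control) across genes, and their chi-square per degree of freedom of 2.58 and 1.61 exceeds sampling noise, so each counted as its own library. Members and gene lists were chosen with earlier results of these data known. Library values were given for CDKN1A, MDM2, the 3 members of each role with the smallest p, those that fell, did not pass or were not tested, and further members where space allowed; from the other lists up to 4 genes per direction with the smallest p, plus TP63, MDM4, EP300 and CREBBP. Some genes that the rule names are not reported here. TNFRSF10D, which that rule does not name, was added after its value was seen. On simulated counts of 12419 genes with known changes, 53 of 67 genes with a log2 change of 0.5 were recovered. So were 57 of 65 at 1 and 66 of 66 at 2, and 10 of 12221 unchanged genes were called. Most genes were thus left unchanged there, while 53.5% of tested genes were called between Bromo+/- and control. Recovery and the number of false calls with so large a share of changes was not tested. Alternatives were other scalings (DESeq2 1.42.0 size factors, upper quartile, library size), other filters, the DESeq2 Wald test, limma 3.58.1 voom, a replicate block, and leaving out each library.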

Additional observations from a re-analysis of the deposited data

How the results depend on the processing

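Under 12 alternatives, all 27 higher and all 6 lower p53 target genes kept their direction, and 22 and 5 of them stayed past the threshold under every one. The exceptions were PPM1D, FAS, POLH, SESN2 and GDF15 among the rises and GADD45A among the falls. The higher count ran from 23 in the DESeq2 Wald test, which called 17.4% of all tested genes higher, to 29 with library size alone (33.6%). The lower count was 5 or 6. It was 5 in both of these settings, where 19.7% and 21.2% of all tested genes were lower. The median was 0.47 with library size alone and lay between 0.38 and 0.47 with a library left out. With a library left out, AEN ran from -0.0007 (without Bromo+/- replicate 1) to 0.1112, and MDM4 from -0.0576 (without Bromo+/- replicate 2) to 0.2557; neither passed in the full set. Without the filter on low counts TNFRSF10C was higher (log2 fold change 2.04, adjusted p = 0.00698, edgeR). With the filter kept, it was tested when Bromo+/- replicate 1, control replicate 1 or control replicate 2 was left out. Its log2 fold changes were then 2.29, 2.42 and 1.73, in that order, and only the last missed the threshold.

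The DESeq2 Wald test gave 2292 higher genes over all, against 3485, 9 higher p53 regulators against 15, and 11 lower cell cycle genes against 17. Library size alone, which puts the median of all genes at 0.09, gave 5 lower regulators against 9 and 7 lower cell cycle genes, and upper quartile scaling 10. With library size alone 61.3% of all calls were higher, against 49.4%. With 1 library left out, assuming that the lone library varies like the other group, regulators ran from 8 to 15 higher and 5 to 9 lower, and cell cycle genes from 9 to 15 lower. With a library left out, smaller shares of all tested genes were called in each direction as well. The cause of these shifts was not tested. Deviations of same-numbered replicates were nearly uncorrelated (r = 0.0484 across genes). No label says what the numbers mark, and a correlation over all genes cannot exclude that they mark something shared. With the replicate block, 27 p53 target genes were higher and 6 lower. Genes with few counts, such as TNFRSF10C, are limited by depth.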
